A study of Homo sapiens with 8 samples.

Results

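The collagen genes were taken as every gene whose symbol is COL, a number, the letter A and a second number, which gave 44 genes of the 27475 in the table once spike-in RNAs were left out. The series measured mRNA in 8 libraries from 2 established lines of human bladder cancer, UM-UC-3 and RT112. Cells of each line were transfected for 72 h with 100 pmol of siRNA, either 3 pooled siRNAs that target PAI-1 (siPAI-1) or 3 pooled scrambled ones (Scr), and each of the 4 groups had 2 libraries. The controls were therefore also transfected cells. The lines were grown in RPMI or DMEM, the labels do not tie a medium to a line, and line and medium cannot be told apart. Each line stands for 1 cell line only, and no label says whether the 2 libraries of a group came from separate cultures (the study describes independent knock-down experiments without tying libraries to them), so p-values measure only the spread between these libraries, which may be technical.

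Collagens are secreted or membrane proteins in which chains wind into a triple helix, and each gene encodes a single chain. Fibrillar collagens build the banded fibrils of connective tissue, type IV collagens form the sheet of the basement membrane on which urothelium rests, and FACIT collagens bind along the surface of fibrils. Transmembrane collagens sit in the cell membrane, where COL17A1 is a component of the hemidesmosomes that fix epithelial cells to the basement membrane. Chains are hydroxylated and folded in the endoplasmic reticulum, and fibrillar chains are then trimmed by proteases and cross-linked outside the cell.

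All 44 genes were found in RefSeq (assembly GRCh38.p14), on 17 chromosomes, and 32 had an entry in the promoter table used here. The type IV genes lie in head-to-head pairs. COL4A1 (chromosome 13, 110148963 to 110307157) and COL4A2 (chromosome 13, 110307284 to 110513209) lie on opposite strands with 126 bases between their starts, and the sequence between them is shown because both genes were higher in RT112 in the Scr libraries. The 250 bases before the start site are shown for COL4A5, the partner of COL4A6, and for COL17A1, COL12A1 and COL13A1, which are among the genes with the widest gap between the lines. The choice did not follow the size of the gap, as COL3A1 and COL5A2 differed more and are not shown. Capitals mark the CCAAT box, the GC box GGGCGG and the TATA box TATAAA, on either strand, and each sequence reads 5′ to 3′ on the strand of the gene named.
COL4A1 to COL4A2, chr13:110307158-110307283, plus strand: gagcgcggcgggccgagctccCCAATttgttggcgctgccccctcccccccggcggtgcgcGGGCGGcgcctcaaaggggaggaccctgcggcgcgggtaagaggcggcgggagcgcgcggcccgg
COL4A5, chrX:108439588-108439837, plus strand: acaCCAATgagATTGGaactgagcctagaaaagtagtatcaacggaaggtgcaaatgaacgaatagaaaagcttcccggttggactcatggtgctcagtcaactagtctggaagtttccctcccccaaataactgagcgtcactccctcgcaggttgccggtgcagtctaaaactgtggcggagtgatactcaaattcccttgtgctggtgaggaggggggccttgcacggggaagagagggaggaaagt
COL17A1, chr10:104085881-104086130, minus strand: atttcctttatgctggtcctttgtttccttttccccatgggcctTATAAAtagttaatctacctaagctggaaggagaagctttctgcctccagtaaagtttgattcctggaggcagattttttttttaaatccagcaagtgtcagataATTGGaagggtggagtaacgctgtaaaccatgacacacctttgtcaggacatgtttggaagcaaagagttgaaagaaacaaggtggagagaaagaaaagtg
COL12A1, chr6:75206054-75206303, minus strand: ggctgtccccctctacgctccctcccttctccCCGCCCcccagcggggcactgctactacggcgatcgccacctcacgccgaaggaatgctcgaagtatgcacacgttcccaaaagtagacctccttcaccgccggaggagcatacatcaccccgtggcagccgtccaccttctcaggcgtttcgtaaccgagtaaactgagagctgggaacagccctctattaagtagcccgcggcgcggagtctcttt
COL13A1, chr10:69801656-69801905, plus strand: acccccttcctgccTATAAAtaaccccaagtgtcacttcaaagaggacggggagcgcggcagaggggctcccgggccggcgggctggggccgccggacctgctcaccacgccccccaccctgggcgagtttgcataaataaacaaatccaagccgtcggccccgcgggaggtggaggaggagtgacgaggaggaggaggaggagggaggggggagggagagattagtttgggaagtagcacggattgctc

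The stretch between COL4A1 and COL4A2 was 80.2% G and C, and the one before COL17A1 was 40.4%, beside a median of 58.0% over 35116 windows of 250 bases. COL17A1 and COL13A1 each held a TATAAA, at 206 and 236 bases before the start site, a motif found in 10.7% of all windows. CCAAT was in 32.0% and GGGCGG in 42.6% of all windows. These matches describe letters and not bound sites.

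The lines were checked against marker genes. RT112 had all 11 urothelial and epithelial markers at a mean of at least 1 TPM (a transcript level scaled to gene length and to a fixed total per library), with a summed level of 12279 to 13953 TPM over its 4 libraries. UM-UC-3 had 6 of the 11 at that level, summed to 226 to 245 TPM, and in its Scr libraries the mean was 0.24 TPM for E-cadherin (CDH1) and 0.30 for EPCAM. The 5 mesenchymal markers summed to 2986 to 3272 TPM in UM-UC-3, nearly all from VIM, and to 72.4 to 147 in RT112. They did not go 1 way: with Scr, VIM, TWIST1 and ZEB1 were called lower in RT112, while fibronectin (FN1, mean 116.5 against 67.4 TPM) and N-cadherin (CDH2, 19.4 against 9.92) were called higher, and with siPAI-1 FN1 and CDH2 overlapped between the lines and were not called. Of 6 fibroblast markers, 3 reached 1 TPM in UM-UC-3 (sum 103 to 116, mostly THY1) and 1 in RT112 (sum 10.8 to 18.3, mostly LUM). The 3 endothelial markers summed to at most 0.66 TPM in UM-UC-3, where CDH5 was listed at 0 in all 4 libraries, and to at most 2.35 in RT112. Of the leukocyte markers, PTPRC did not exceed 0.03 TPM in any library, while CD68 was at 279 and 275 TPM in UM-UC-3 and at 16.4 and 19.5 in RT112 with Scr. These markers differed between the lines as collagens did, and their part in the collagen differences was not tested. In bulk RNA, fewer cells of a type and less RNA per cell cannot be told apart.

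Depth was estimated from the spacing of low values and lay between 29.4 and 34.1 M reads per library, and 16157 to 16663 genes were above 0. One library stood apart in what follows: RT112 with siPAI-1, replicate 1, had a summed collagen level of 370 TPM against 451 to 465 in the other 3 RT112 libraries. The fibronectin gene FN1 was also lower there, at 58.3 TPM against 108 to 120. Not every matrix gene was lower in that library: LOXL1, a lysyl oxidase relative, was at 103.6 TPM there against 42.3 to 53.3 in the other RT112 libraries.

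The members COL1A2, COL25A1, COL6A5, COL6A6 and COL9A1, were listed at 0 in all 8 libraries. The other 39 were above 0 in at least 1 library and 19 in all 8. Only 21 reached a mean of 1 TPM in any group and 12 reached 10 TPM. The 18 that were seen but stayed under 1 TPM had a median of 21.1 estimated reads in their highest library, so their ratios between groups are poorly measured. Of those 18, 14 were called in no comparison and their highest group means ran from 0.01 TPM for COL20A1 to 0.27 for COL8A1.

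**Figure D1:**
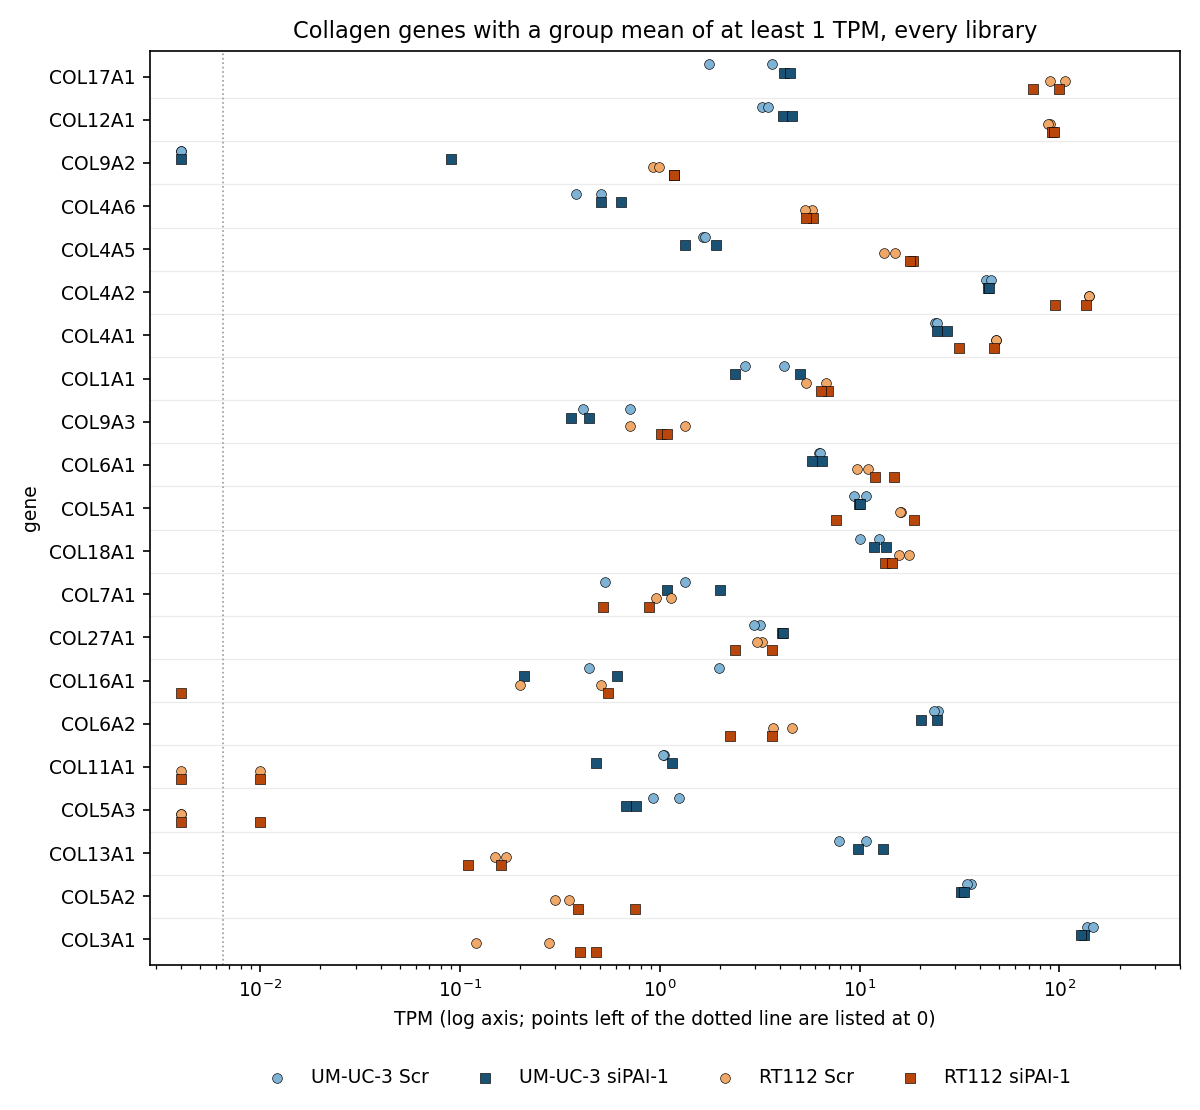
TPM of the 21 collagen genes with a group mean of at least 1 TPM, on a log axis, 1 point per library (circles Scr, squares siPAI-1, blue UM-UC-3, orange RT112), ordered by the difference between the lines with Scr. COL17A1 and COL12A1 at the top lie near 100 TPM in RT112 and under 5 in UM-UC-3, and COL3A1 and COL5A2 at the bottom lie at 32.0 to 147.66 TPM in UM-UC-3 and under 1 in RT112.

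The lines carried different collagens. In UM-UC-3 with Scr, fibrillar genes made up 60.0% of the summed collagen TPM and type IV genes 21.5%, and 3 genes (COL3A1, COL4A2 and COL5A2) gave 67.7% of it. In RT112 with Scr, type IV genes made up 45.8%, transmembrane genes 21.5%, FACIT genes 19.96% and fibrillar genes 5.69%, and COL4A2, COL17A1 and COL12A1 together gave 71.6%. The summed level was 465 and 451 TPM in the RT112 libraries with Scr, against 322 and 333 in those of UM-UC-3.

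**Figure D2:**
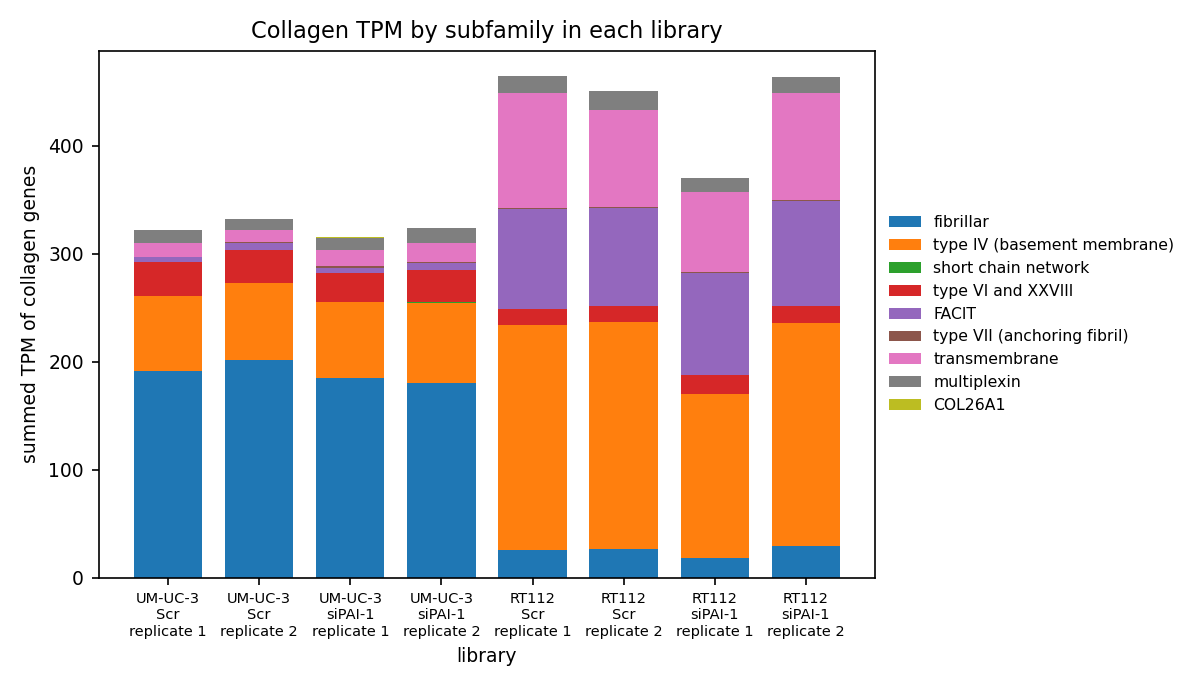
Summed TPM of collagen genes in each of the 8 libraries, stacked by subfamily from 0. Fibrillar genes form 180 to 201 TPM of each UM-UC-3 bar and 18.3 to 29.6 of each RT112 bar, and the bar of RT112 with siPAI-1 replicate 1 is the lowest of the 4 RT112 bars at 370 TPM.

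The comparison of RT112 with UM-UC-3 in Scr libraries asked which collagen genes distinguish the lines without the knock-down. Of 38 members tested, 12 were higher and 7 lower in RT112 at an adjusted p under 0.05 (limma on log2(TPM + 0.1), Benjamini-Hochberg over 19201 genes). That was 19 of the 38 members, beside 51.6% of all genes tested (25.3% higher and 26.3% lower), so the share of members called was close to the background. Other counts came when the test took in only genes averaging 1 TPM or more over the libraries of both lines. With Scr, 14 of 15 members were then called (10 higher, 4 lower), beside 68.9% of 12769 genes. With siPAI-1, 10 of 16 were called (6 higher, 4 lower), beside 69.5% of 12795. Since the average spans both lines, genes high in only 1 line, such as COL3A1 and COL5A2, enter through that line. That favours a call, so these counts are not read as a result about the members. The median log2 difference was 0.27 over the members and -0.06 over all genes. Since the fold is on the log2(TPM + 0.1) scale, it understates the change of low genes. The 4 siPAI-1 libraries gave a line comparison with no library in common, in which 10 of 38 members were higher and 7 lower, or 44.7% beside 52.2% of 19359 genes (26.2% higher, 26.1% lower). Of the members, 15 were called in both, 9 higher and 6 lower in RT112, and the direction was the same for all 15. The same lines were compared each time, and 51.6% of all genes were called with Scr and 52.2% with siPAI-1. The share of all genes called in both is not given here, so the 15 shared calls are not read as a result particular to collagen genes.

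**Figure D3:**
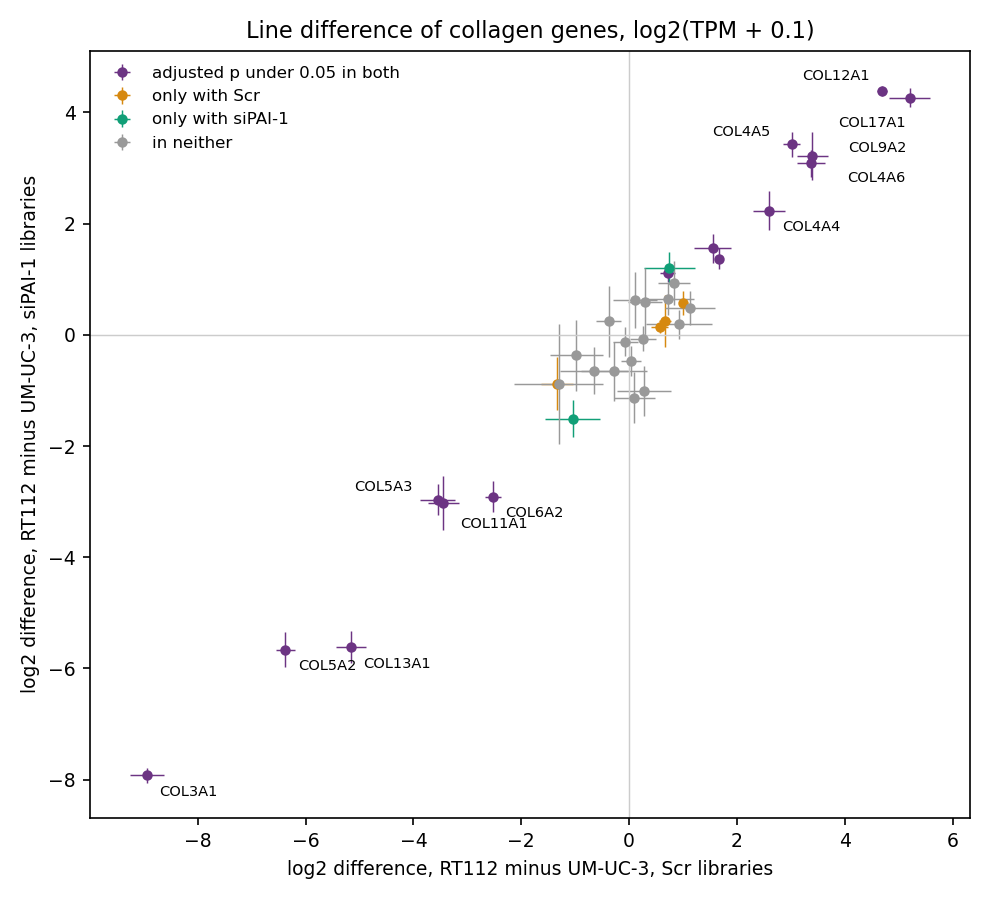
Log2 difference between RT112 and UM-UC-3 in the Scr libraries (horizontal) and in the siPAI-1 libraries (vertical) for the collagen genes tested in both, with bars of 1 standard error, and colours for the comparison in which the adjusted p was under 0.05. The 15 genes called in both lie in the upper right or lower left, with COL3A1 at -8.94 and -7.92 and COL17A1 at 5.20 and 4.27.

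Among fibrillar collagens, 4 of 10 tested were lower in RT112 and 1 was higher with Scr, a share close to the 51.6% of all genes called. COL3A1, which encodes the only chain of type III collagen, was at 136.97 and 147.66 TPM in UM-UC-3 with Scr and at 0.12 and 0.28 in RT112, where these values stand for an estimated 13.2 and 30.2 reads. With siPAI-1 it was at 132 and 129 TPM in UM-UC-3 and at 0.48 and 0.40 in RT112. The lines did not overlap, and the log2 difference was -8.94 ± 0.31 (SE) with Scr (adjusted p = 0.00038) and -7.92 ± 0.14 with siPAI-1 (adjusted p = 0.00022).

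COL5A2, a chain of the type V collagen that takes part in starting fibrils, lies 19.2 kb from COL3A1 on chromosome 2 and showed the same pattern. It was at 36.0 and 34.5 TPM in UM-UC-3 with Scr, at 32.0 and 33.1 with siPAI-1, and at 0.30 to 0.75 TPM in the 4 RT112 libraries. The log2 difference with Scr was -6.38 ± 0.18 (adjusted p = 0.00031). Its partner chain COL5A1 went the other way. COL5A1 was at 10.7 and 9.38 TPM in UM-UC-3 and at 16.1 and 15.95 in RT112 with Scr (log2 difference 0.67 ± 0.12, adjusted p = 0.012). With siPAI-1 the lines overlapped, at 9.94 and 10.03 TPM against 7.59 and 18.7, and the gene was not called (log2 difference 0.25 ± 0.47, adjusted p = 0.67). COL5A1 thus exceeded COL5A2 by at least 10.1 times in every RT112 library and was under it, at 0.27 to 0.31 times, in every UM-UC-3 library.

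COL5A3, the third chain of type V, was at 0.92 and 1.25 TPM in UM-UC-3 with Scr and listed at 0 in both RT112 Scr libraries. COL11A1, a chain of the related type XI collagen of cartilage, was at 1.05 and 1.04 TPM in UM-UC-3 and at 0.01 and 0 in RT112 with Scr. Both were called lower in RT112 in both line comparisons, at levels of at most 173 estimated reads per library. COL1A1, the major chain of type I collagen, was at 2.68 and 4.19 TPM in UM-UC-3 and at 5.39 and 6.78 in RT112 with Scr. Those groups did not overlap, but the difference was not called (log2 difference 0.83 ± 0.29, adjusted p = 0.081). It was called when the test was limited to genes averaging 1 TPM or more. COL1A2, its usual partner chain, was listed at 0 in all 8 libraries. COL27A1 was at 3.18 and 2.96 TPM in UM-UC-3 and at 3.25 and 3.05 in RT112 with Scr, and these overlapped.

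Of the type IV genes of the basement membrane, 5 of 6 were called higher in RT112 with Scr and 4 of 6 with siPAI-1, and none was called lower. Beside this, 25.3% of all genes tested were called higher in RT112 with Scr and 26.2% with siPAI-1. COL4A2, which with COL4A1 forms the most common type IV molecule, was the most abundant collagen transcript of RT112, at 141 in both Scr libraries against 43.0 and 45.3 TPM in UM-UC-3. Its log2 difference was 1.67 ± 0.06 with Scr (adjusted p = 0.00037) and 1.37 ± 0.19 with siPAI-1 (adjusted p = 0.0062). COL4A1 was at 48.3 and 48.0 TPM in RT112 and 23.8 and 24.4 in UM-UC-3 with Scr, a log2 difference of 0.99 ± 0.07 (adjusted p = 0.0010). With siPAI-1, COL4A1 was at 31.6 and 47.1 TPM in RT112 and 24.5 and 27.5 in UM-UC-3, and was not called (0.57 ± 0.22, adjusted p = 0.10). The head-to-head pair did not keep 1 ratio: COL4A2 was 2.88 to 3.02 times COL4A1 in the 4 RT112 libraries and 1.61 to 1.86 times in the 4 of UM-UC-3.

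COL4A5 and COL4A6, chains of more restricted basement membranes that lie head to head on chromosome X with 379 bases between them, differed more in proportion. COL4A5 was at 13.3 and 15.1 TPM in RT112 and 1.65 and 1.68 in UM-UC-3 with Scr, 8.53-fold apart (log2 difference 3.01 ± 0.16, adjusted p = 0.00072). COL4A6 was at 5.76 and 5.33 TPM in RT112 and 0.38 and 0.51 in UM-UC-3, 12.5-fold apart (3.38 ± 0.26, adjusted p = 0.0015). Here the ranges of the ratio of COL4A5 to COL4A6 overlapped, at 2.31 to 3.33 in RT112 and 2.61 to 4.34 in UM-UC-3. COL4A4 was at 0.53 and 0.60 TPM in RT112 and at 0.02 and 0 in UM-UC-3 with Scr, and was called in both line comparisons. Its head-to-head neighbour COL4A3, the third chain of the glomerular type IV molecule, did not exceed 0.15 TPM in any library.

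The other large differences were in transmembrane and FACIT collagens. COL17A1 was at 106 and 89.6 TPM in RT112 and at 1.77 and 3.65 in UM-UC-3 with Scr, 36.1-fold apart (log2 difference 5.20 ± 0.37, adjusted p = 0.0012). With siPAI-1 it was at 73.5 and 99.3 against 4.20 and 4.50 TPM (4.27 ± 0.17, adjusted p = 0.00051). COL13A1, another transmembrane collagen, was opposite, at 0.15 and 0.17 TPM in RT112 and 10.7 and 7.90 in UM-UC-3 with Scr, 58.1-fold apart (-5.16 ± 0.28, adjusted p = 0.00076). The order of these transmembrane genes thus differed between the lines. COL17A1 was at least 459 times COL13A1 in RT112, where COL13A1 rested on only 7.3 to 12.4 estimated reads per library. In UM-UC-3 COL17A1 was the lower, at 0.17 to 0.46 times COL13A1. COL23A1, of the same class, was higher in RT112 but reached only 0.30 TPM.

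COL12A1, a FACIT collagen of the fibril surface, was at 90.0 and 87.7 TPM in RT112 and 3.24 and 3.46 in UM-UC-3 with Scr, and at 92.1 and 94.3 against 4.13 and 4.58 with siPAI-1. Its log2 difference was 4.69 ± 0.09 (adjusted p = 0.00024) and 4.39 ± 0.09 (adjusted p = 0.00025), among the tightest of the members. COL9A2, a chain of the type IX collagen of cartilage, was at 0.92 and 0.99 TPM in RT112 and listed at 0 in UM-UC-3 with Scr, and was called in both line comparisons. Its partner COL9A3 was at 0.71 and 1.34 TPM in RT112 and 0.41 and 0.71 in UM-UC-3 with Scr and was called only with siPAI-1, while COL9A1 was listed at 0 throughout. COL16A1 varied between libraries of 1 group, at 0.44 and 1.97 TPM in UM-UC-3 with Scr, and overlapped between lines.

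Type VI collagen, a microfibril made from 3 different chains, had its 2 abundant chain genes differing in opposite directions. COL6A2 was at 24.6 and 23.6 TPM in UM-UC-3 and at 4.59 and 3.68 in RT112 with Scr (log2 difference -2.52 ± 0.15, adjusted p = 0.00090). COL6A1, 93.1 kb away on chromosome 21, was at 6.25 and 6.33 TPM in UM-UC-3 and at 9.74 and 11.1 in RT112 (0.71 ± 0.13, adjusted p = 0.015). COL6A1 was 0.24 to 0.32 times COL6A2 in UM-UC-3 and 2.12 to 6.56 times in RT112, and the third chain COL6A3 stayed at or below 0.29 TPM in all 8 libraries. COL6A3 was called lower in RT112 only with siPAI-1.

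COL18A1, whose protein sits in basement membranes and releases endostatin, differed by less, at 15.8 and 17.6 TPM in RT112 and 12.5 and 10.1 in UM-UC-3 with Scr (log2 difference 0.57 ± 0.15, adjusted p = 0.042). With siPAI-1 its lines overlapped. COL7A1, the anchoring fibril collagen that links basement membrane to the tissue beneath, was at 0.96 and 1.14 TPM in RT112 and 0.53 and 1.33 in UM-UC-3 with Scr, and these overlapped. COL26A1 was lower in RT112 with Scr, at 0.03 and 0 TPM against 0.21 and 0.17, on at most 13.3 estimated reads.

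The calls that only 1 line comparison made (COL18A1, COL26A1, COL4A1 and COL5A1 with Scr, COL6A3 and COL9A3 with siPAI-1) do not show that the line difference changed with siPAI-1; that is the interaction tested over all 8 libraries. With 1 of the 4 Scr libraries left out in turn, 13 of the 19 calls held in every fit, and COL17A1, COL18A1, COL23A1, COL26A1, COL5A1 and COL6A1 lost theirs in at least 1 fit. COL17A1 was lost without either RT112 Scr library, COL18A1 and COL23A1 without any of the 4, COL5A1 without either RT112 library, COL6A1 without RT112 replicate 2 or either UM-UC-3 library, and COL26A1 without any but RT112 replicate 1. With 1 of the siPAI-1 libraries left out, 6 of the 17 calls (COL12A1, COL13A1, COL17A1, COL3A1, COL4A6 and COL5A3) held in every fit, and each of the 4 libraries ended at least 5 calls when left out. No called difference changed direction in these fits. The calls of COL23A1 and COL26A1 with Scr and of COL6A3 with siPAI-1 were also lost with a pseudocount of 0.01 TPM, that of COL18A1 without the trend in limma and that of COL5A1 in 1 fit of all 8 libraries.

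Genes that process, bind or degrade collagen, or lie beside it in the basement membrane, were counted in 5 lists. Each is to be read beside the 51.6% of all genes called with Scr and the 52.2% called with siPAI-1. Among genes averaging 1 TPM or more, the shares called were higher, at 68.9% with Scr and 69.5% with siPAI-1. Of 20 genes of chain modification and folding, 15 were lower and 3 higher in RT112 with Scr, and 14 and 2 with siPAI-1. FKBP10, a prolyl isomerase of the endoplasmic reticulum that folds procollagen, was at 135 and 121 TPM in UM-UC-3 and at 0.47 and 0.13 in RT112 (log2 difference -8.47 ± 0.48, adjusted p = 0.00080). SERPINH1, the collagen chaperone HSP47, was at 98.4 and 102 TPM in RT112 and at 0.22 and 0.39 in UM-UC-3, the line with the high fibrillar transcripts (log2 difference 7.99 ± 0.25, adjusted p = 0.00033). P4HA3, a catalytic chain of prolyl 4-hydroxylase, was at 4.17 and 3.48 TPM in UM-UC-3 and at 0.02 and 0.15 in RT112. P3H3, of the prolyl 3-hydroxylase family, was higher in RT112 (2.88 and 0.72 TPM against 0.19 and 0.09), with an adjusted p of 0.043 that did not hold with FPKM, with a pseudocount of 1 TPM or with any 1 library left out.

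Of 15 genes of propeptide cleavage and cross-linking, 6 were lower and 2 higher in RT112 with Scr, a share close to that of all genes. PCOLCE2, an enhancer of procollagen C-propeptide removal, was at 76.9 and 59.9 TPM in UM-UC-3 and at 0.22 and 0.11 in RT112 (-8.03 ± 0.30, adjusted p = 0.00040), and ADAMTS14, an N-propeptidase, was at 2.06 and 2.27 TPM against 0 in RT112. The lysyl oxidase relative LOXL1 ran the other way, at 43.3 and 42.3 TPM in RT112 and 0 and 0.02 in UM-UC-3 with Scr. BMP1, the C-proteinase itself, was at 41.6 and 39.4 TPM in RT112 and 19.96 and 19.6 in UM-UC-3.

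Among 11 collagen receptors, 4 were lower and 2 higher in RT112 with Scr, again close to the share of all genes. MRC2, an endocytic collagen receptor, was at 22.2 and 24.98 TPM in UM-UC-3 and at 0.37 and 0.19 in RT112, and DDR2, a receptor kinase for fibrillar collagen, at 10.3 and 8.75 against 0.24 and 0.04. ITGA2, a collagen-binding integrin chain, was at 28.3 and 29.2 TPM in RT112 and 1.74 and 1.41 in UM-UC-3, and the receptor kinase DDR1 was at 122 and 109 against 24.9 and 22.6. DDR1 was above DDR2 in both lines.

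Of 7 degradation genes tested, 3 were higher and 2 lower in RT112 with Scr. The gelatinase MMP2 was at 65.6 and 65.7 TPM in RT112 and 28.8 and 25.8 in UM-UC-3, and the collagenase MMP13 was at 1.57 and 1.60 TPM in RT112 and listed at 0 in UM-UC-3. MMP9, also a gelatinase, was lower in RT112 (0.21 and 0.46 TPM against 4.98 and 2.73), as was the collagen-degrading cathepsin CTSK, at 0.12 and 0.09 against 0.74 and 0.33 TPM with Scr (adjusted p = 0.049). With siPAI-1, CTSK was at 0.43 and 0.71 TPM in RT112 and at 0.82 and 0.34 in UM-UC-3, so the lines overlapped and it was not called (log2 difference 0.04 ± 0.52, adjusted p = 0.95 by limma). All 8 basement membrane partners of type IV were called with Scr, 5 higher and 3 lower in RT112, and 7 with siPAI-1, 4 higher and 3 lower, PXDN not passing (adjusted p = 0.052). Among them the laminin chain LAMA5 was at 147 and 145 TPM in RT112 and 43.8 and 35.0 in UM-UC-3, and the peroxidase PXDN, which cross-links type IV, was at 0.87 and 2.27 against 0.20 and 0.18. LAMB2, another laminin chain, was at 16.1 and 19.8 TPM in RT112 and 62.3 and 63.5 in UM-UC-3, and the linker NID2 was listed at 0 in RT112 and at 0.79 and 0.27 TPM in UM-UC-3. With 1 Scr library left out, FKBP10, P4HA3, DDR2, LAMB2 and PXDN were no longer called without either UM-UC-3 library, NID2 and LAMA5 without either RT112 library, MMP9 without any of the 4 and CTSK without any but UM-UC-3 replicate 2, and each kept its direction.

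**Figure D4:**
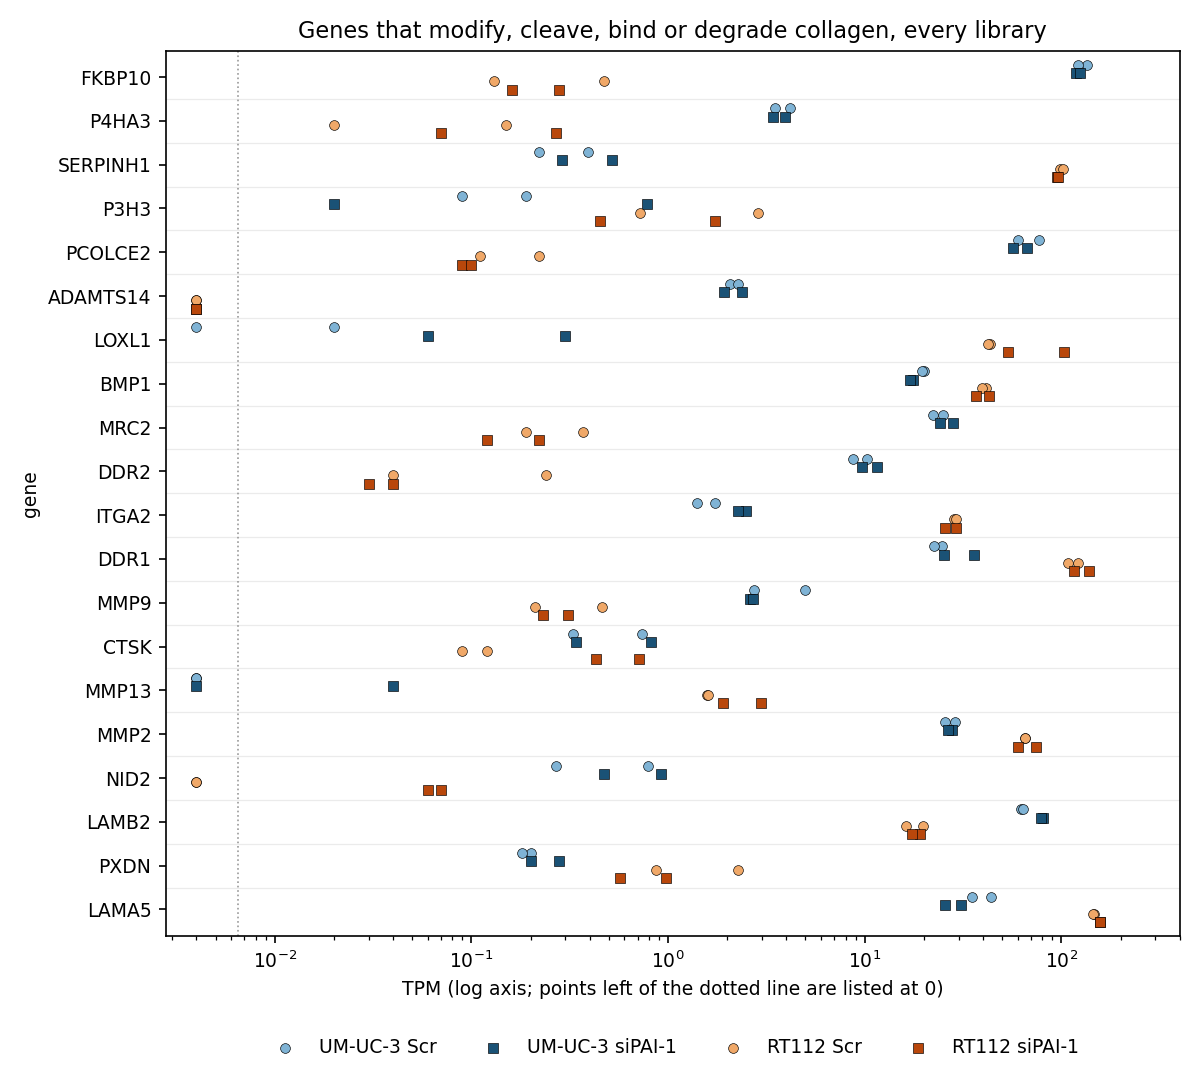
TPM on a log axis of the genes named from 5 lists of collagen biosynthesis, receptor, degradation and basement membrane genes, 1 point per library with the same symbols as the plot of collagen levels, points left of the dotted line being listed at 0. FKBP10 and PCOLCE2 lie above 50 TPM in UM-UC-3 and under 1 in RT112, while SERPINH1 and LOXL1 lie above 40 in RT112 and under 1 in UM-UC-3.

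The comparison of siPAI-1 with Scr asked how the collagen genes responded to PAI-1 knock-down in each line. In UM-UC-3, none of 38 members tested was called by limma at an adjusted p under 0.05 and none had an unadjusted p under 0.05, beside 0.0% and 6.01% of 18528 genes. The 18 members with a group mean of at least 1 TPM in the line had log2 differences from -1.17 for COL16A1, whose libraries overlapped, to 0.75 for COL17A1, 8 above 0 and 10 below, and 17 of them were within 2-fold. The median SE of these 18 was 0.22 and their median absolute difference 0.15, so changes of that size were not detectable with 2 libraries a group.

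In UM-UC-3 the members with the smallest p were COL17A1, COL27A1 and COL3A1. COL17A1 was at 4.20 and 4.50 TPM with siPAI-1 and at 1.77 and 3.65 with Scr (log2 difference 0.75 ± 0.39, adjusted p = 0.86 by limma). COL27A1 was at 4.10 and 4.15 TPM against 3.18 and 2.96 (0.42 ± 0.22), and COL3A1 at 132 and 129 against 136.97 and 147.66 (-0.12 ± 0.06), both also with an adjusted p of 0.86. These 3 were picked for their small p, so the lack of overlap between their groups adds no support. For COL17A1 the difference was 0.25 without Scr replicate 1 and 1.25 without Scr replicate 2.

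In RT112, none of 37 members was called at an adjusted p under 0.05 by limma and 1 had an unadjusted p under 0.05, beside 0.0% and 5.77% of 18437 genes. COL4A5 was that member, at 18.4 and 17.9 TPM with siPAI-1 and at 13.3 and 15.1 with Scr (log2 difference 0.35 ± 0.12, adjusted p = 0.84). COL6A1 was at 14.8 and 12.0 TPM against 9.74 and 11.1 (0.36 ± 0.16), and COL18A1 at 13.5 and 14.6 against 15.8 and 17.6 (-0.25 ± 0.12). All 3 had an adjusted p of 0.84 by limma. They were picked for their small p, so the lack of overlap between their groups adds no support.

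COL4A1, COL4A2, COL5A1 and COL17A1 had their lowest RT112 value in replicate 1 of siPAI-1. Among members with a group mean of at least 1 TPM in RT112, so did COL18A1, COL6A2, COL27A1 and COL7A1. The opposite held for COL4A5, COL6A1, COL1A1 and COL4A6, which had their highest RT112 value in that library. The share of all genes with their lowest or highest value there is not given, so this is not read as particular to collagen genes. In replicate 1 of siPAI-1, COL4A2 was at 95.4 TPM, against 136 in replicate 2 and 141 in both Scr libraries. COL4A1 was at 31.6 TPM against 47.1, 48.3 and 48.0, COL5A1 at 7.59 against 18.7, 16.1 and 15.95, and COL17A1 at 73.5 against 99.3, 106 and 89.6. Without that library, the other siPAI-1 library was within the range of the Scr libraries for COL17A1. It was just below both of them for COL4A1 and COL4A2 and above both for COL5A1. COL12A1 did not share the drop, at 92.1 and 94.3 TPM with siPAI-1 against 90.0 and 87.7. Without replicate 1, no member had an unadjusted p under 0.05 in either direction, and without replicate 2 there were 2 higher and 3 lower.

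**Figure D5:**
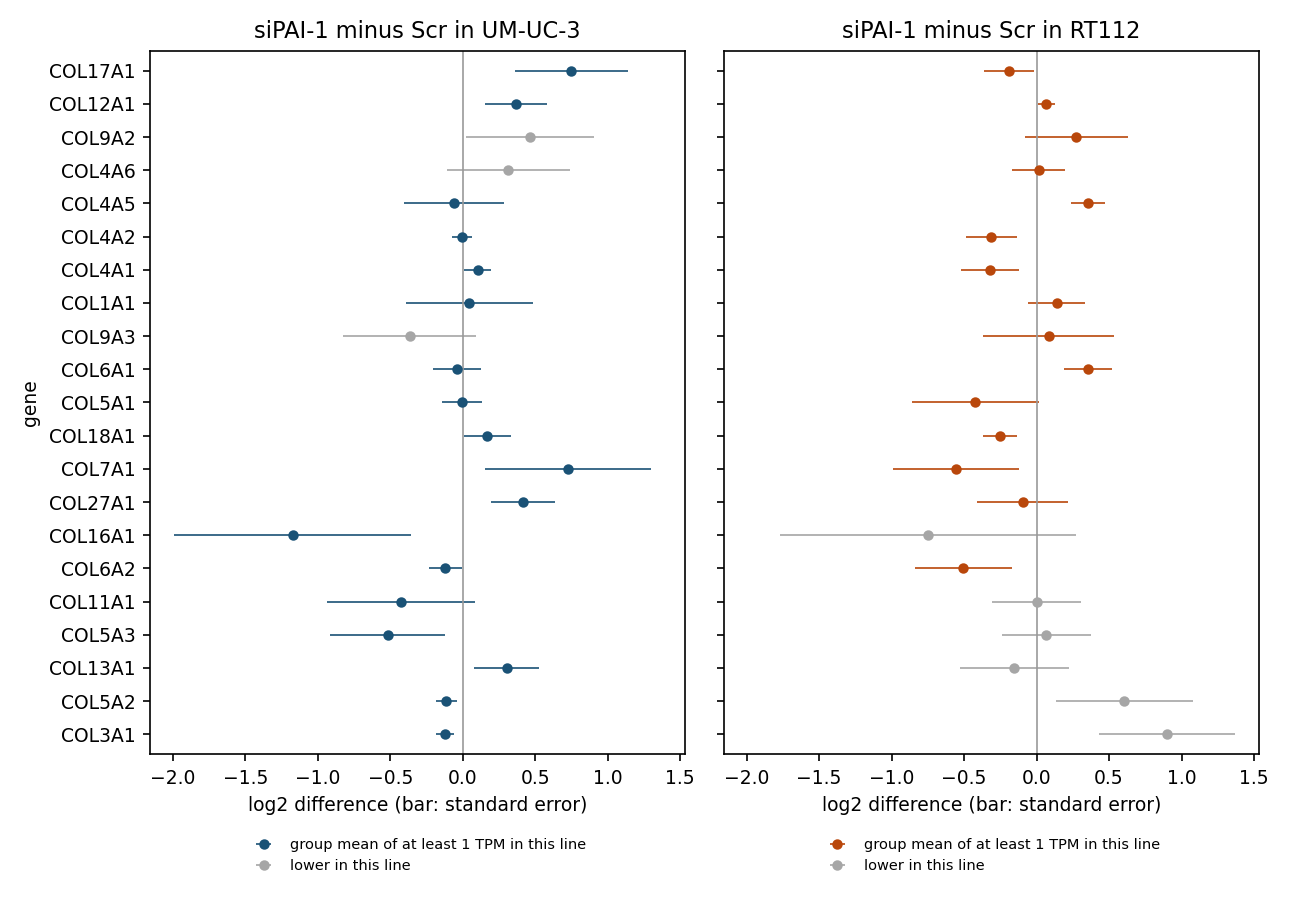
Log2 difference between siPAI-1 and Scr for the 21 collagen genes with a group mean of at least 1 TPM, in UM-UC-3 (left) and RT112 (right), with bars of 1 standard error, and grey where the gene is under 1 TPM in both groups of the line. Coloured points lie between -1.17 and 0.75 in UM-UC-3 and between -0.56 and 0.36 in RT112.

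The pathway genes gave no call either. None of the genes of the 5 lists had an adjusted p under 0.05 by limma in either line. An unadjusted p under 0.05 was seen for 3 of 60 tested in UM-UC-3 (1 higher, 2 lower) and for 4 of 57 in RT112 (3 higher, 1 lower), beside the 6.01% and 5.77% of all genes. CTSK in RT112 was among them, at 0.43 and 0.71 TPM with siPAI-1 and at 0.12 and 0.09 with Scr (log2 difference 1.68 ± 0.44, adjusted p = 0.84 by limma).

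Whether siPAI-1 acted differently in the lines was tested as an interaction over all 8 libraries. Of 39 members, none was called by limma at an adjusted p under 0.05 and 1 had an unadjusted p under 0.05, beside 0.0% and 6.76% of 20274 genes. That member was COL3A1, whose level in RT112 is under 1 TPM in every library.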

How the data were processed

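RNA from 8 libraries was sequenced after a stranded mRNA kit. Per the labels and the study's methods, the authors aligned reads with STAR 2.5.0 to GRCh38, and the deposited TPM and the deposited FPKM values carry RSEM 1.2.25 gene-table names, while the methods name featureCounts and DESeq2; the deposited values were rounded to 2 decimals, replicates were not pooled, and reads or counts were not used here. TPM is scaled to gene length and to a common sum; FPKM to length and library total. The main test was limma 3.58.1 (R 4.3.3; two-sided, eBayes with trend) on log2(TPM + 0.1) over genes above 0 in at least 1 library fitted, with 92 spike-in rows left out, in place of the study's count test. Genes were called at a Benjamini-Hochberg adjusted p under 0.05. Library depth was estimated from FPKM steps of 3680 short genes at a read length of 75. Reads per gene were then computed from FPKM, that depth and the length of the longest annotated transcript. They are approximate, and too high where a shorter transcript was the one present. The test was first run on simulated data with known large changes in genes of at least 1 TPM. That run does not cover small changes, genes under 1 TPM or the interaction.

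Members and gene lists were chosen with earlier results of these data known. Genes named were members that reached a group mean of 1 TPM or a call in any comparison, the 3 with the smallest p per knock-down comparison, and the 2 called genes furthest each way per pathway list. Every collagen count is uncertain where RSEM split reads between overlapping genes. Deposited values for 8 columns were all mapped to samples. Alternatives were other pseudocounts, FPKM, rescaling, a filter at 1 TPM, a replicate block, no trend, 1 fit of all libraries and each library left out. The level of the gene that the siRNA targets is not reported here.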

Additional observations from a re-analysis of the deposited data

Results flagged for a closer look

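The 21 collagen genes with a group mean of at least 1 TPM were searched for opposite shifts in the lines. In 3 of them, both siPAI-1 libraries lay above both Scr libraries in 1 line and below them in the other. The share of all genes that show this is not given here, so the 3 are not read as a result about collagen genes. The effect of siPAI-1 in RT112 minus that in UM-UC-3 was 1.02 for COL3A1 on the log2 scale (adjusted p = 0.69 by limma). It was -0.42 for COL4A1 (adjusted p = 0.85 by limma) and 0.72 for COL5A2 (adjusted p = 0.83 by limma), so none of the 3 differences passed the test over all genes. COL3A1 and COL5A2 were under 1 TPM in all RT112 libraries, and the COL3A1 value was 0.39 with a pseudocount of 1 TPM and 1.33 with one of 0.01. The COL4A1 value includes the low replicate 1 of RT112 with siPAI-1. In UM-UC-3 its separation rested on 24.46 TPM in the lower siPAI-1 library against 24.42 in the higher Scr library.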

How the results depend on the processing

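With 2 libraries a group and members of few reads, small changes were not detectable, and levels under 1 TPM rest on rounded values. Over 93 results and 1107 alternative values, 816 concerned single genes of the line comparisons: 717 kept direction and side of the threshold, 88 fell past it, 6 newly passed it and 5 reversed. All 87 for the named genes of the knock-down and interaction kept theirs. The remaining values were counts of members past a threshold: 172 stayed close to the main count and 32 moved away from it. The reversals were of uncalled values, and their cause was not tested: COL27A1 with Scr (-0.0083 without RT112 Scr replicate 1 and -0.0139 without UM-UC-3 Scr replicate 2, range -0.0139 to 0.0862), COL7A1 with Scr (-0.32 without UM-UC-3 Scr replicate 1, range -0.32 to 0.86), and, with siPAI-1 and without RT112 siPAI-1 replicate 2, COL16A1 (0.47, range -2.23 to 0.47) and COL5A1 (-0.39, range -0.39 to 0.90). When only genes averaging 1 TPM or more were tested, fewer members entered: of 15 with Scr, 10 were higher and 4 lower in RT112 (93.3%, beside 68.9% of all genes), and of 16 with siPAI-1, 6 were higher and 4 lower (62.5%, beside 69.5%). That average spans both lines, so genes high in only 1 line enter through it, and these shares are not read as a result about the members. With 1 library left out, 9 to 11 members were higher and 7 to 10 lower in RT112 with Scr. With siPAI-1, 5 to 9 were higher (6 without UM-UC-3 siPAI-1 replicate 1, 5 without replicate 2) and 5 to 6 lower. In these fits the lone library was assumed to vary like the other group.

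No alternative gave a collagen gene an adjusted p under 0.05 for the knock-down or the interaction. At an unadjusted p under 0.05, UM-UC-3 had 2 members higher with siPAI-1 without the eBayes trend and 1 in the fit of all 8 libraries, and RT112 had 0 higher without the trend. For the interaction, 2 were more positive in RT112 without the trend, and 1 was more negative with a pseudocount of 0.01 TPM or rescaling by median ratio. With 1 library left out, these counts ran from 0 to 2 in each direction in UM-UC-3, from 0 to 2 higher and 0 to 3 lower in RT112, and from 0 to 3 more positive and 0 to 5 more negative for the interaction.

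Libraries of the same replicate number showed little shared deviation: correlations of replicate differences between groups were -0.04 to 0.04 over 12803 genes. Such correlations cannot tell whether these libraries were made as pairs, and the labels do not say. With the replicate block, 11 members were higher and 6 lower in RT112 with Scr (COL18A1, COL23A1 and COL26A1 were no longer called, nor was CTSK, and COL1A1 was), 10 and 7 with siPAI-1 (COL9A3 was no longer called and COL4A1 was), and 0 were called for the knock-down or the interaction; at an unadjusted p under 0.05 the block left 0 higher in RT112 and 0 more positive in the interaction.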
